A study of Mus musculus with 20 samples.

Results

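Collagen genes were taken as all protein-coding genes whose mouse symbol has the form of a type and a chain number, such as Col1a1, which gave 44 of the 32991 annotated genes in the colon RNA-seq files. They fall into 11 chains of fibrillar collagens, 8 of basement membrane collagens and 25 of other types. The data came from male C57BL/6 mice, 5 in each of the groups Control, PZH, Model and Model + PZH, with 1 library per mouse. Control mice received double distilled water by gavage for 91 days, and PZH mice received PZH (Pien Tze Huang, a traditional Chinese medicine) at 250 mg/kg/d over the same time. Model mice received the water and were made to develop colitis-associated tumours with 1 injection of azoxymethane (AOM, 12.5 mg/kg) and 4 cycles of 2% dextran sulfate sodium (DSS) in drinking water for 5 days each. Model + PZH mice received AOM, DSS and PZH. Age and the share of tumour in each piece of colon are not given in the sources used here, so a difference between groups covers tumour, inflamed and other colon wall together.

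Collagens are proteins, most of them secreted, whose chains wind into triple helices. Types I, III and V build the fibrils of the gut's lamina propria and submucosa, and fibroblasts are their main source. Type IV forms the network of basement membranes under epithelium, around vessels and around muscle cells, with types XV and XVIII linking that network to the tissue beneath. Type VI makes beaded filaments around cells, types IX, XII, XIV and XVI sit on fibril surfaces, type VIII forms short-chain networks, type VII anchors epithelia, and types XIII, XVII and XXIII span cell membranes.

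The authors deposited FPKM (fragments per kilobase of transcript, scaled to sequencing depth) for each transcript, and a gene's value here is the sum over its annotated transcripts. Depth was 15.3 to 19.4 M fragments per mouse, read from the steps of FPKM multiplied by transcript length. The labels name the tissue as colon, while their extraction text names the abdominal aorta. Vil1, a structural protein of the intestinal brush border, had between 157 and 274 FPKM in the 20 mice. Markers of several cell types differed between Model and Control mice, and bulk tissue cannot tell fewer cells of a type from less RNA per cell. All 6 smooth muscle markers were lower in Model mice (limma, adjusted p under 0.05), with a summed level of 2244 to 5172 FPKM in Control mice and 996 to 1734 FPKM in Model mice. Among fibroblast markers, Pdgfra and Pdpn were higher and Dpt was lower, and of the endothelial markers Cdh5 alone of 4 was higher. Macrophage markers had 2 of 3 higher (summed 21.4 to 33.9 FPKM in Control and 34.2 to 44.03 FPKM in Model mice), leukocyte markers 1 of 4 higher and the 1 mesothelial marker tested, Msln, was higher (log2 fold change 1.84). Of the enteric glia markers 2 of 3 were lower, of the epithelial markers 2 of 6 and of the skeletal muscle markers 1 of 2. Pericyte and squamous epithelium markers had 0 of 3 called each, and adipocyte markers 0 of 1. Among all 15812 genes tested, 16.4% were called higher and 7.23% lower, so counts such as 1 of 4 lie near that share. Some markers varied widely within a group. Krt8, an epithelial marker, ran from 0.105 to 3071 FPKM in Control mice, and the endothelial marker Pecam1 from 2.22 to 9.85 FPKM. Epcam, an epithelial marker outside the 6 tested, had 844 and 672 FPKM in Model mice 23 and 33. Every other Model mouse and every Control mouse had 0 FPKM of it. Epithelial and endothelial counts are therefore no measure of cell content. The part of read assignment in them was not tested. The part of these cell types in the differences below was not tested.

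The 6 type IV chains are encoded by 3 pairs of genes that lie head to head, so that each pair is read outwards from neighbouring starts. Col4a1 (chromosome 8, 11198423 to 11312826, minus strand) and Col4a2 (chromosome 8, 11312805 to 11449287, plus strand) overlap at their starts by 22 bases in GRCm38. Those bases are shown because both genes rose in Model mice. They lie in exon 1 of Col4a1-201 and of Col4a2-201 and are given on the plus strand from the RefSeq promoter table (GRCm38.p6, chr8:11312805-11312826), with the letters GGGCGG in capitals.
Col4a1 and Col4a2 overlap: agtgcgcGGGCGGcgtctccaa
Col4a6 (chromosome X, 141165403 to 141474076, minus strand) fell in Model mice, and its start lies 1308 bases from that of Col4a5. The 250 bases before its start (chrX:141474077-141474326, minus strand, RefSeq, GRCm38.p6) overlap no annotated exon. Both strands were searched for TATAAA (the letters of a TATA box), for the CCAAT box and for GGGCGG (a GC box), where matches of different motifs may share end bases, and the capitals mark the 1 match, a GGGCGG on the other strand.
Col4a6 upstream: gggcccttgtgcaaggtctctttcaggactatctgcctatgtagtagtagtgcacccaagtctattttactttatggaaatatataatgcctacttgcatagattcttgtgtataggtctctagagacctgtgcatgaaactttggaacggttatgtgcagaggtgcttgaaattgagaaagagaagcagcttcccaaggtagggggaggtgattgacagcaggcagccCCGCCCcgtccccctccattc
GGGCGG occurred in 22 of the 38 windows of 250 bases before collagen starts (57.9%, 35 genes matched) and in 32.7% of the 32851 windows of all genes. TATAAA occurred in 13.2% of the collagen windows and 12.4% of all windows, and CCAAT in 34.2 and 33.8%. These are counts of letters and mark no binding site.

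In Control mice the collagen genes together summed to 385 ± 96.4 FPKM (SD, n = 5). Col3a1, the single chain of type III collagen, led with 139 ± 35.4 FPKM (SD, n = 5), 36.2% of that sum. Col6a1 (49.6 ± 12.9 FPKM), Col6a2 (39.9 ± 10.3), Col1a1 (34.6 ± 10.1), Col4a1 (28.7 ± 8.02) and Col4a2 (23.7 ± 7.46) followed, and neighbours in this order after Col3a1 overlapped within their SD. The next, Col5a2, had 9.99 ± 4.37 FPKM. At the low end, 13 of the 44 genes had all 4 group means under 0.5 FPKM, among them the cartilage chains Col2a1, Col9a1, Col10a1 and Col11a1, and the Col4a3 and Col4a4 chains of the kidney glomerulus. Col6a4 was listed at 0 in 19 of the 20 mice.

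By class, the basement membrane collagens differed most between Model and Control mice. Their summed level was 51.9, 44.1, 86.0, 63.8 and 90.0 FPKM in the Control mice and 203, 180.2, 177, 162 and 160.4 FPKM in the Model mice. The groups did not overlap, and the share of all collagen FPKM held by the class was 17.3 ± 1.45% (SD, n = 5) in Control and 29.5 ± 2.11% in Model mice. The fibrillar sum was 201 ± 49.6 FPKM in Control and 297 ± 14.4 FPKM in Model mice, with 52.3 and 49.6% of collagen FPKM. The fibrillar sums did not overlap, but in Model mouse 52 they included 65.3 FPKM of Col1a2, a gene whose values jump between mice of a group. Without the 9 genes that do so in the Control, PZH or Model group, the fibrillar sums overlapped. Model mouse 52 then had 200.5 FPKM, below Control mouse 50 at 221 FPKM. The basement membrane sums without them still lay apart, at 40.5 to 81.9 FPKM in Control and 119.7 to 196 FPKM in Model mice. The sum of the other types was 117 ± 30.04 FPKM in Control and 125 ± 12.97 FPKM in Model mice, which overlapped. In Model + PZH mice the basement membrane sum was 93.0, 86.0, 85.4 and 81.2 FPKM in 4 mice and 176 FPKM in mouse 35. Without mouse 35 the log2 ratio of Model + PZH to Model for this class moved from −0.76 to −1.03. PZH and Control sums overlapped in every class. These sums are descriptions without a test, and a few abundant chains lead them.

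**Figure D1:**
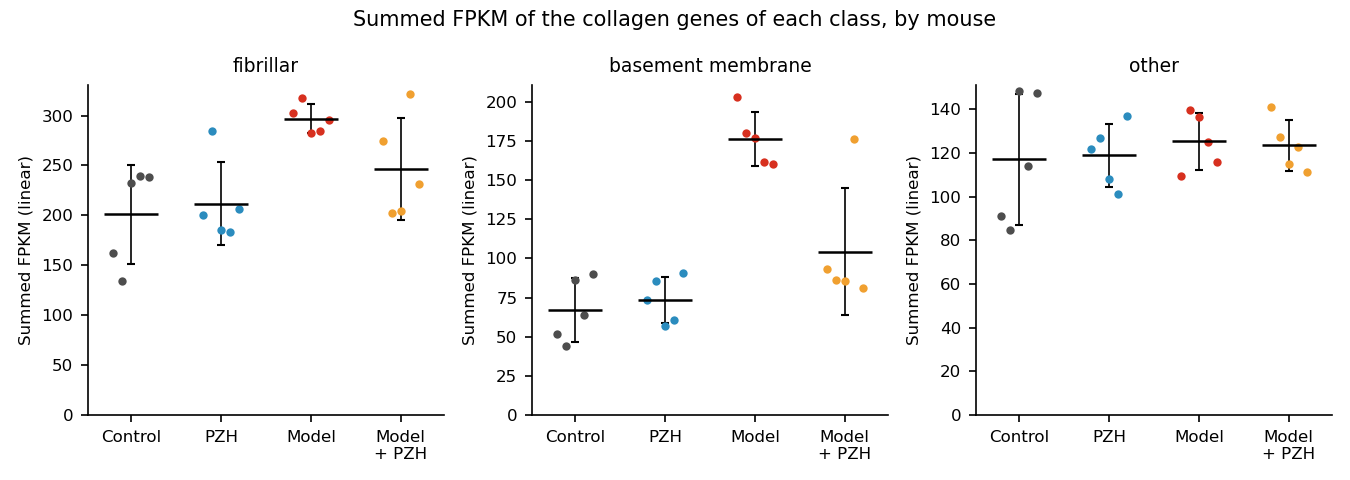
Summed FPKM of the collagen genes of each class on a linear axis, by group, with 1 point per mouse, a line at the mean and bars of 1 SD (n = 5). All 5 Model mice lie above all Control mice for the fibrillar and basement membrane classes. The fibrillar gap is lost without the 9 genes that jump between mice of the Control, PZH or Model group. The high Model + PZH point of the basement membrane class is mouse 35 (176 FPKM).

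Model and Control mice were compared to see what AOM and DSS changed. Of the 44 collagen genes, 30 reached 0.5 FPKM in 5 or more of the 10 mice and were tested, and 9 were higher and 2 lower in Model mice (limma, adjusted p under 0.05 over all genes). Among all 15812 genes tested, 23.6% were called, 16.4% higher and 7.23% lower. The called genes that rose were the basement membrane chains Col4a1, Col4a2 and Col18a1, the fibrillar chains Col1a1 and Col5a2, and Col9a2, Col9a3, Col12a1 and Col16a1 of the fibril-associated types. Col4a6 and Col8a2 fell. Among the genes that rose, Col5a2, Col12a1 and Col18a1 belong to the 9 that jump within a group. The part of read assignment to transcripts in their differences was not tested. The groups did not overlap in 7 genes that were higher (13% of all genes tested) and 2 that were lower (5.43%). The median log2 difference was 0.33 over the 30 genes and 0.09 over all genes. By class it was 0.41 over 8 fibrillar, 0.71 over 6 basement membrane and 0.26 over 16 other genes.

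**Figure D2:**
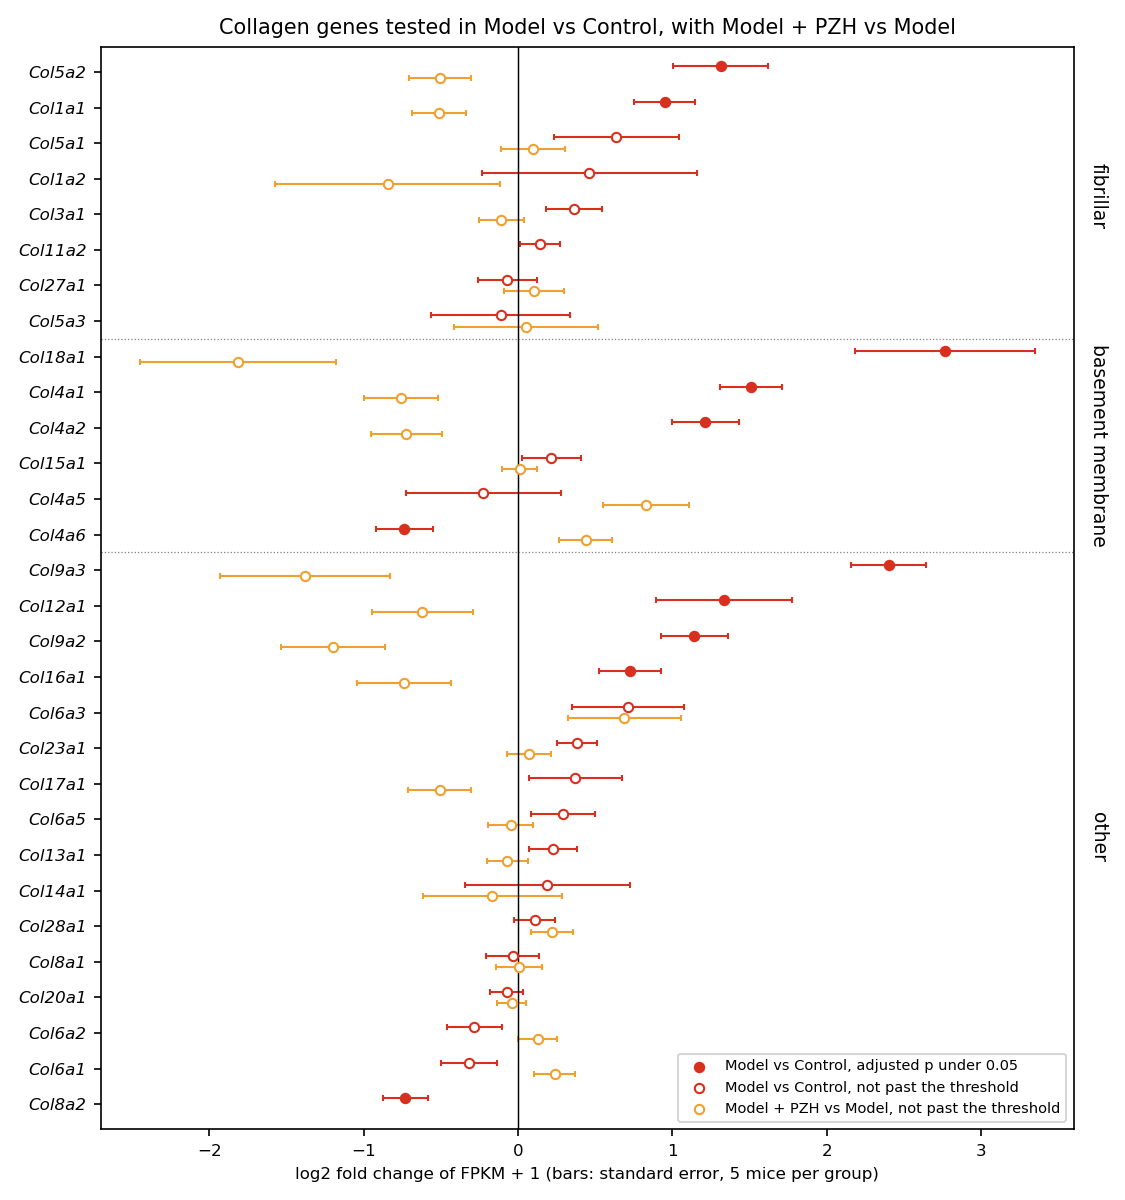
Log2 fold change of FPKM + 1 for the 30 collagen genes tested in Model against Control mice (red) and the same genes in Model + PZH against Model mice (orange) where tested, with bars of 1 standard error and filled points for an adjusted p under 0.05. Of the red points 11 are filled and of the orange points none is, and both comparisons use the same Model mice.

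Col4a1 and Col4a2, the chains of the common type IV network, rose together. Col4a1 had 23.2, 19.95, 38.2, 26.2 and 36.02 FPKM in Control mice and 114, 75.2, 70.7, 85.6 and 67.3 FPKM in Model mice. Col4a2 had 19.8, 13.9, 27.2, 23.7 and 33.7 FPKM in Control mice and 72.7, 52.2, 48.9, 57.4 and 43.0 FPKM in Model mice. Every Model mouse exceeded every Control mouse for both chains, and mouse 23 was highest in both. The log2 fold change was 1.51 for Col4a1 (standard error, SE, 0.20, adjusted p = 0.000512, 2.87 times the Control mean). For Col4a2 it was 1.21 (SE 0.22, limma adjusted p = 0.00289, 2.32 times).

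Col4a6, a type IV chain of basement membranes around smooth muscle and some epithelia, went the other way. Its values were 1.29, 0.879, 1.58, 1.72 and 2.41 FPKM in Control mice and 0.193, 0.874, 0.856, 0.292 and 0.497 FPKM in Model mice. No Model mouse reached the lowest Control mouse, although Control mouse 37 and Model mouse 30 lay close together. The log2 fold change was −0.74 (SE 0.18, limma adjusted p = 0.0154). The smooth muscle markers, Myh11 among them, fell in the same mice. In PZH mice the smooth muscle sum was 1039 to 2412 FPKM, with 5 of 6 markers lower than in Control at an unadjusted p under 0.05 and 0 of 6 called, while Col4a6 had 1.48 ± 0.102 FPKM (SD, n = 5) against 1.58 ± 0.566 FPKM in Control mice. In Model + PZH mice the sum was 872 to 2300 FPKM and Col4a6 had 1.08 ± 0.363 FPKM. Col4a5, its partner, had values from 0.0133 to 4.35 FPKM in Control and from 0.00842 to 1.89 FPKM in Model mice and did not pass the test (log2 fold change −0.22, adjusted p = 0.792).

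Col18a1 and Col15a1 encode multiplexins, proteoglycan collagens at the outer face of basement membranes, whose end fragments are endostatin and restin. Col18a1 (chromosome 10, 77052178 to 77166548) had 1.19, 1.26, 3.24, 1.65 and 3.76 FPKM in Control mice and 5.95, 40.7, 44.1, 6.38 and 38.8 FPKM in Model mice. Model mice split into 3 high (30, 33 and 52) and 2 low ones. The log2 fold change of 2.76 (SE 0.58, limma adjusted p = 0.00686) therefore rests mostly on 3 mice and on 1 transcript, Col18a1-202, which had 39.1, 42.4 and 38.3 FPKM in them and at most 4.60 FPKM in the other 17 mice. On estimated fragments with limma voom the adjusted p was 0.0668. Col18a1 is among the 9 genes that jump within a group. The assembled transcript picked as most opposite to Col18a1-202, described below, had 29.8 to 54.2 FPKM in Control mice. In Model mice 23, 30, 33, 44 and 52 it had 25.6, 0, 5.12, 0 and 0 FPKM. That transcript has no gene name and is not in the sum, and its part in the difference was not tested. Col15a1 had 8.68 ± 2.75 FPKM in Control and 9.90 ± 0.945 FPKM in Model mice (SD, n = 5), and its log2 difference of 0.22 did not pass the test (adjusted p = 0.463).

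**Figure D3:**
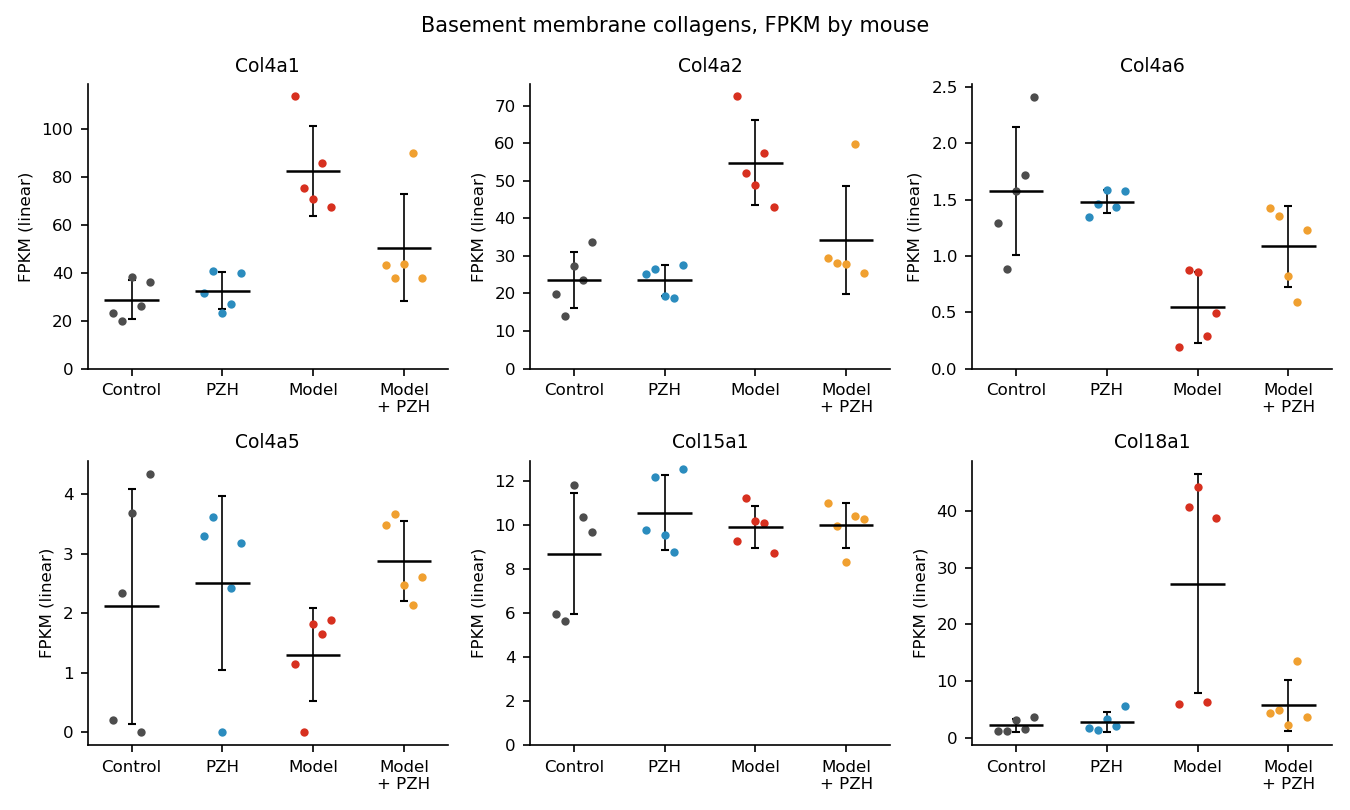
FPKM of 6 basement membrane collagen genes on linear axes, by group, with 1 point per mouse, a line at the mean and bars of 1 SD (n = 5). Col4a1 and Col4a2 are high in all Model mice, Col4a6 is low in them, and Col18a1 splits the Model mice into 3 near 40 FPKM and 2 near 6 FPKM.

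Among fibrillar chains, Col1a1 (the α1 chain of type I collagen, chromosome 11, 94936224 to 94953042) rose. It had 27.1, 21.0, 45.3, 40.6 and 38.9 FPKM in Control mice and 62.0, 66.8, 66.2, 79.4 and 54.6 FPKM in Model mice. The lowest Model mouse was above the highest Control mouse, with a log2 fold change of 0.95 (SE 0.20, limma adjusted p = 0.00669). Col3a1 had 113, 92.4, 153, 159 and 178 FPKM in Control mice and 191, 210.5, 173, 162 and 144 FPKM in Model mice. These overlapped, and the log2 difference of 0.36 (SE 0.18) had an adjusted p of 0.182. The level of Col3a1 divided by that of Col1a1 was 3.38 to 4.58 in Control mice and 2.04 to 3.15 in Model mice, and 2.92 to 3.94 in Model + PZH mice.

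Col5a2, the type V chain that takes part in starting type I fibrils, had 10.2, 9.24, 13.2, 14.2 and 3.11 FPKM in Control mice and 27.6, 23.1, 24.5, 25.1 and 19.99 FPKM in Model mice. All Model mice were higher (log2 fold change 1.31, SE 0.31, adjusted p = 0.0116). Control mouse 50 stood low, with its transcript Col5a2-201 listed at 0, and without that mouse the log2 fold change was 0.99. With limma voom on estimated fragments the adjusted p of Col5a2 was 0.0622. Col5a2 is among the 9 genes that jump within a group. The assembled transcript picked as most opposite to it, described below, had 17.5 to 22.5 FPKM in Control and 5.52 to 9.66 FPKM in Model mice. That transcript has no gene name and is not in the sum, and its part in the difference was not tested.

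Col1a2, the α2 chain that joins 2 α1 chains in type I collagen, gave values that did not follow the groups. It had 2.66 to 9.43 FPKM in Control mice, 3.35, 3.25, 5.21, 4.21 and 65.3 FPKM in Model mice, and 68.9 FPKM in PZH mouse 14 against 4.58 to 7.89 FPKM in the other 4 PZH mice. The log2 difference between Model and Control of 0.46 (SE 0.70, limma adjusted p = 0.682) turned to −0.29 without Model mouse 52. The ratio of Col1a1 to Col1a2 accordingly ran from 0.55 to 22.999 over the 20 mice.

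Type IX collagen, a fibril-associated trimer best known from cartilage, was near the limit of detection in Control mice and rose. Col9a3 (chromosome 2, 180597790 to 180622189) had 0.58, 0.146, 0.324, 0.506 and 0.257 FPKM in Control mice and 3.48, 4.23, 6.66, 9.27 and 9.12 FPKM in Model mice. In estimated fragments these were 2 to 9.5 per Control mouse and 123.5 to 355 per Model mouse. The log2 fold change of 2.40 (SE 0.24, limma adjusted p = 7.6e-05) is on the FPKM + 1 scale, and the group means differed 18.1-fold. Col9a2 (chromosome 4, 121039385 to 121055322) had 0.366, 0.811, 0.796, 1.52 and 1.22 FPKM in Control mice and 3.199, 3.13, 1.91, 5.23 and 3.13 FPKM in Model mice. Again all Model mice were higher, with a log2 fold change of 1.14 (SE 0.22, limma adjusted p = 0.00397). Col9a1, the remaining chain, was below the filter, with at most 0.0162 FPKM in Control mice and 0.096 to 0.227 FPKM in Model mice. The cartilage markers Acan, Matn1 and Comp summed to at most 0.521 FPKM in any Model mouse.

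Col8a2, a short-chain collagen of vessel walls and Descemet's membrane, fell. It had 0.617, 1.24, 1.31, 1.03 and 1.51 FPKM in Control mice and 0.163, 0.259, 0.579, 0.0788 and 0.373 FPKM in Model mice. The groups did not overlap, at a log2 fold change of −0.73 (SE 0.14, limma adjusted p = 0.00498). Its partner chain Col8a1 had 2.65 FPKM on average in Control and 2.57 FPKM in Model mice, and its log2 difference was −0.03 (adjusted p = 0.913).

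**Figure D4:**
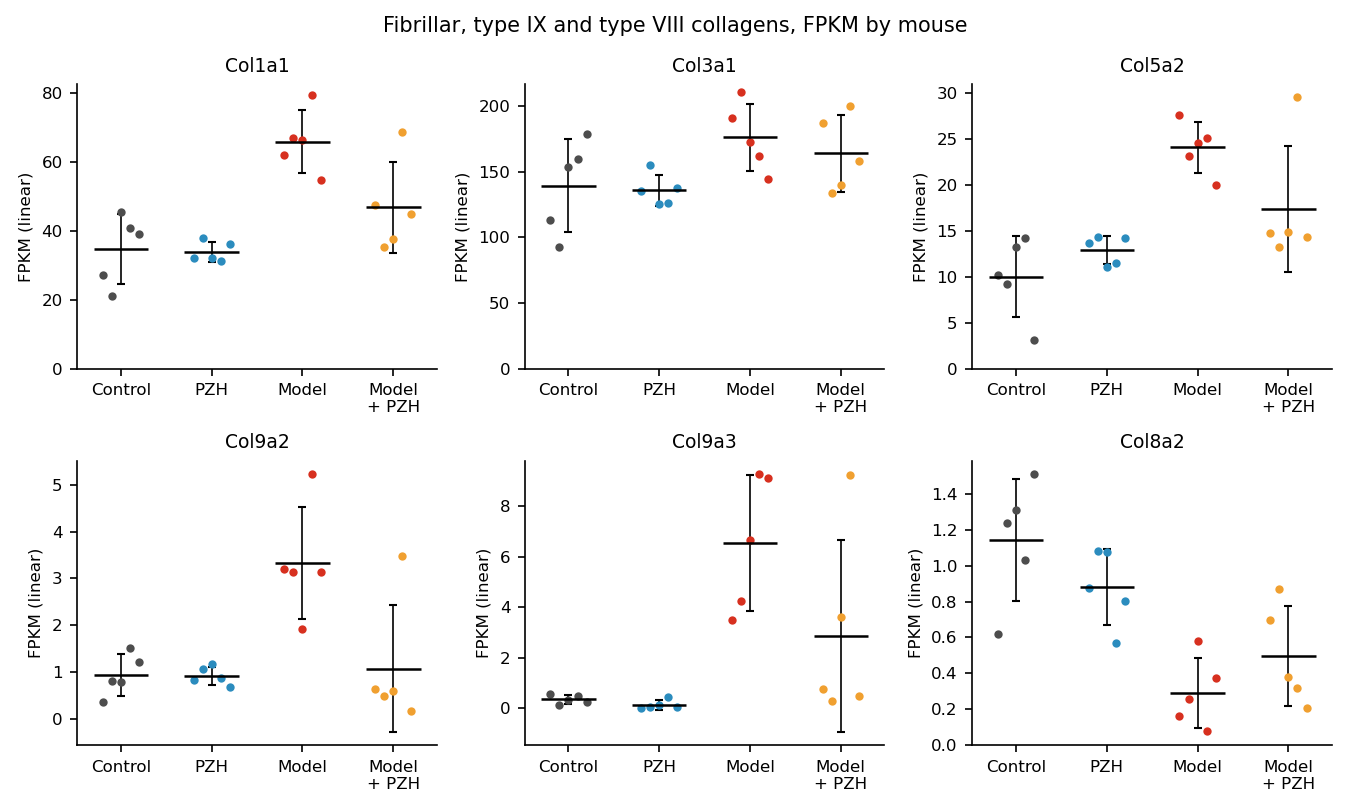
FPKM of 3 fibrillar genes and of Col9a2, Col9a3 and Col8a2 on linear axes, by group, with 1 point per mouse, a line at the mean and bars of 1 SD (n = 5). Model mice lie above all Control mice for Col1a1, Col5a2, Col9a2 and Col9a3 and below them for Col8a2, Col3a1 overlaps between the groups, and the highest Model + PZH point of each panel but that of Col8a2 is mouse 35.

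Col16a1 and Col12a1, both carried on fibril surfaces, passed the test with less margin. Col16a1 had 4.74, 4.25, 8.05, 5.12 and 9.53 FPKM in Control mice and 10.4, 10.5, 9.18, 12.9 and 10.7 FPKM in Model mice, with only Model mouse 33 inside the Control range. Its log2 fold change was 0.73 (SE 0.20, limma adjusted p = 0.024). The adjusted p rose to between 0.0517 and 0.0636 when Control mouse 17 or 48 or Model mouse 44 or 52 was left out. Part of the rise lay in Col16a1-207, a transcript without a coding frame, at most 0.367 FPKM in Control and 1.39 to 5.50 FPKM in Model mice. The coding transcript Col16a1-210 was not called (log2 difference 0.58, limma adjusted p = 0.373). Col12a1 had 3.83, 1.44, 8.07, 1.77 and 5.53 FPKM in Control mice and 7.22, 10.2, 21.0, 15.9 and 4.75 FPKM in Model mice. The groups overlapped, and the log2 fold change of 1.34 (SE 0.44) had an adjusted p of 0.0499. The adjusted p was above 0.05 in 8 of the 10 fits that left out 1 mouse (Control mouse 17, 37, 48 or 50, or Model mouse 23, 30, 33 or 44), with values up to 0.117.

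The type VI chains, which assemble as trimers of Col6a1, Col6a2 and a longer chain, were not called. Col6a1 had 38.8, 34.6, 57.4, 51.6 and 65.8 FPKM in Control mice and 37.6, 49.8, 37.9, 33.1 and 35.9 FPKM in Model mice (log2 difference −0.32, SE 0.18, adjusted p = 0.237). Col6a2 had 29.1, 29.1, 51.2, 43.0 and 47.3 FPKM against 32.4, 40.0, 30.1, 29.3 and 28.3 FPKM (log2 difference −0.28, SE 0.18, adjusted p = 0.288). Both chains overlapped between the groups. Col6a3 had 4.46, 6.29, 4.81, 1.89 and 4.11 FPKM in Control mice and 3.25, 8.71, 11.7, 4.49 and 12.9 FPKM in Model mice (log2 difference 0.71, SE 0.36, adjusted p = 0.183). The ratio of Col6a1 to Col6a2 stayed between 1.09 and 1.39 over the 20 mice and that of Col4a1 to Col4a2 between 1.07 and 1.56, whereas Col6a1 over Col6a3 ran from 2.77 to 27.3.

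Of the tested genes not yet described, the transmembrane chain Col23a1 had a log2 difference of 0.38 (adjusted p = 0.0572). The remaining ones, among them Col5a1, Col5a3, Col13a1, Col14a1, Col27a1 and Col28a1, had adjusted p of 0.295 to 0.887. The epithelial anchoring chain Col7a1 was not tested here, with 0.0798 to 0.289 FPKM in Control and 0.384 to 1.18 FPKM in Model mice. Col17a1, a hemidesmosome protein of stratified epithelium, had 1.70 and 1.32 FPKM in Control mice 17 and 50 and at most 0.049 FPKM in the other 3. Those 2 mice also had 33.9 and 20.9 FPKM of Krt5, a keratin of stratified epithelium, against at most 0.0936 FPKM in the other Control mice. In Model mice Col17a1 had 0.417 to 1.18 FPKM, with Krt5 at most 0.525 FPKM and the keratin Krt14 at 6.20 to 22.5 FPKM. The log2 difference of Col17a1 between Model and Control was 0.37 (limma adjusted p = 0.416), and the part of such epithelium in it was not tested.

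Model + PZH mice were compared with Model mice to see what PZH changed in mice given AOM and DSS. With limma, 0 of 29 collagen genes tested had an adjusted p under 0.05, against 0.00629% of 15888 genes, and limma voom on estimated fragments also called 0. At an unadjusted p under 0.05 there were 11 collagen genes, 9 lower and 2 higher, where 11.7% of all genes had such a p. Their adjusted p ran from 0.356 to 0.399. The 9 with lower values were Col1a1, Col4a1, Col4a2, Col5a2, Col9a2, Col9a3, Col16a1, Col17a1 and Col18a1, and the 2 with higher values Col4a5 and Col4a6. The median log2 difference was −0.07 over the collagen genes and −0.04 over all genes.

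Mouse 35 of the Model + PZH group stood apart from the other 4 in most of these genes. Col4a1 had 43.3, 37.8, 43.5 and 37.8 FPKM in mice 2, 13, 15 and 36 and 89.7 FPKM in mouse 35. Those 4 mice lay below every Model mouse and mouse 35 above 4 of the 5 Model mice. The log2 difference was −0.76 (SE 0.24, limma adjusted p = 0.356). For Col4a2, values of 29.4, 28.1, 28.0 and 25.4 FPKM stood against 59.7 FPKM in mouse 35, with a log2 difference of −0.72 (SE 0.23, limma adjusted p = 0.356). For Col1a1 they were 47.5, 35.3, 37.5 and 44.8 FPKM against 68.6 FPKM, with a log2 difference of −0.51 (SE 0.18, limma adjusted p = 0.356). The same 4 mice were below all Model mice in both genes.

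Col5a2 had 14.8, 13.3, 14.9 and 14.3 FPKM in the same 4 mice and 29.6 FPKM in mouse 35, above every Model mouse. Col9a2 had 0.638, 0.486, 0.605 and 0.17 FPKM and 3.48 FPKM in mouse 35. The log2 differences from Model were −0.50 for Col5a2 (SE 0.20, limma adjusted p = 0.385) and −1.20 for Col9a2 (SE 0.34, limma adjusted p = 0.356). Col9a3 spread further, with 0.756, 0.271, 3.604, 9.23 and 0.475 FPKM in mice 2, 13, 15, 35 and 36 (log2 difference −1.38, SE 0.55, adjusted p = 0.385). Col18a1 had 4.34, 5.00, 2.21, 13.5 and 3.78 FPKM in the same order (log2 difference −1.81, SE 0.63, adjusted p = 0.358). The assembled transcript picked as most opposite to Col5a2-201, described below, had 14.8, 13.5, 11.5, 6.90 and 13.2 FPKM in that order. In Model mice it had 5.52 to 9.66 FPKM. The one picked for Col18a1-202 had 19.0, 22.3, 13.9, 7.91 and 20.2 FPKM, against 0 to 25.6 FPKM in Model mice. Neither is in the sums, and their part in these differences was not tested. In mouse 35 the keratin Krt14 was also high, at 39.2 FPKM against 0.870 to 4.83 FPKM in the other 4 Model + PZH mice. Model mice had 6.20 to 22.5 FPKM of Krt14.

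Without mouse 35, 6 collagen genes were called lower in Model + PZH than in Model mice, where 5.17% of all genes were called. They were Col9a2 (log2 fold change −1.52, adjusted p = 0.0073), Col4a2 (−0.94, adjusted p = 0.00922), Col5a2 (−0.70, adjusted p = 0.00929), Col4a1 (−0.98, adjusted p = 0.00953), Col1a1 (−0.66, adjusted p = 0.0241) and Col9a3 (−1.86, adjusted p = 0.0324). Nothing in the labels sets mouse 35 apart, so the result with all 5 mice is the one reported, and the difference between both fits shows how far 1 mouse decides it. Leaving out any other single mouse gave 0 called genes. Of the 6 genes, Col5a2 is among the 9 that jump within a group. The part of read assignment to transcripts in its difference was not tested.

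Other chains had little or the opposite difference. Col3a1 had 187, 134, 139, 200.3 and 158 FPKM in Model + PZH mice 2, 13, 15, 35 and 36, which overlapped the Model mice (log2 difference −0.11, SE 0.14, adjusted p = 0.796). Col6a1 had 45.9 ± 6.47 FPKM (SD, n = 5) and a log2 difference of 0.24 (SE 0.13, limma adjusted p = 0.507), and Col6a2 had 35.1 ± 4.93 FPKM and 0.13 (SE 0.13, limma adjusted p = 0.715). Col4a6 had 1.42, 1.36, 0.819, 0.587 and 1.23 FPKM, of which 3 were above all Model mice (log2 difference 0.44, SE 0.17, adjusted p = 0.38). Col4a5 did not overlap between the groups and was higher (0.403% of all genes), and Col16a1 did not overlap and was lower (0.673%), although neither passed the adjusted test. Col4a5 is among the 9 genes that jump within a group. The assembled transcript picked as most opposite to it had 1.86, 5.35, 2.46, 0 and 0 FPKM in Model mice. In Model + PZH mice it had 0.141, 2.68, 0.799, 1.31 and 0 FPKM. Its part in the Col4a5 difference was not tested. Col16a1 in Model + PZH mouse 36 was 1.82 FPKM against 7.23 to 8.997 FPKM in the other 4.

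PZH alone was compared with Control mice to see what the medicine changed in mice without AOM and DSS. With limma, 0 of 27 collagen genes tested were called, against 0.00645% of 15506 genes, and 0 had an unadjusted p under 0.05, against 8.84% of all genes. Limma voom also called 0. In 0 genes were the 2 groups without overlap, where 0.909% of all genes lay apart with higher and 0.896% with lower values. Log2 differences ran from −0.19 for Col5a1 (SE 0.48) to 0.93 for Col1a2 (SE 0.62), the latter led by mouse 14. For the abundant chains they were 0.02 for Col1a1 (SE 0.19), 0.18 for Col4a1 (SE 0.21) and −0.02 for Col6a2 (SE 0.17), so that differences of the order of these SEs were not detectable with 5 mice per group.

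Against Control mice, Model + PZH mice had 1 called collagen gene of 28 tested, Col6a3, where 2.42% of 15616 genes were called, 1.55% higher and 0.871% lower. Only Col23a1 had groups without overlap, with higher values (log2 difference 0.45, adjusted p = 0.123), where 4.18% of all genes lay apart with higher and 2.59% with lower values. Col6a3 in Model + PZH mice had 16.02, 14.8, 12.9, 6.06 and 15.7 FPKM, of which 4 values exceeded every Control mouse (log2 fold change 1.40, SE 0.30, adjusted p = 0.0368). The adjusted p lay between 0.0543 and 0.0969 when Control mouse 17, 41, 48 or 50 or Model + PZH mouse 2, 13, 15 or 36 was left out. Col6a3 is among the 9 genes that jump within a group. The assembled transcript picked as most opposite to Col6a3-202, described below, had 6.13, 0.173, 11.2, 10.5 and 11.6 FPKM in Control mice. In Model + PZH mice it had 0.551, 0.859, 0.662, 8.24 and 0.594 FPKM. That transcript is not in the sum, and its part in the difference was not tested. The chains called between Model and Control had smaller values here, such as a log2 difference of 0.75 for Col4a1 (SE 0.26, limma adjusted p = 0.137), 0.44 for Col1a1 (SE 0.24, limma adjusted p = 0.315) and −0.06 for Col9a2 (SE 0.32, limma adjusted p = 0.942). Both comparisons share the Control mice.

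Whether the PZH difference itself depended on AOM and DSS was tested as an interaction over all 20 mice. With limma, 0 of 31 collagen genes were called (0.0118% of 16936 genes), 6 had an unadjusted p under 0.05, all negative, and limma voom called 0. The lowest p values belonged to Col9a2 (−1.21, SE 0.39, adjusted p = 0.358) and Col4a1 (−0.94, SE 0.33, adjusted p = 0.384). Without Model + PZH mouse 35 both were called, Col9a2 at −1.53 (adjusted p = 0.00375) and Col4a1 at −1.16 (adjusted p = 0.0271), where 2.83% of all genes were.

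How the fragments of a gene were divided among transcripts mattered for several chains. The Control, PZH and Model groups were searched for genes that jump between mice. In such a gene the highest mouse of a group had at least 4 times the FPKM of the lowest and at least 3 FPKM. These were 9 of the 44 genes, namely Col1a2, Col4a5, Col5a1, Col5a2, Col5a3, Col6a3, Col12a1, Col14a1 and Col18a1. The Model + PZH group was not part of the search. In it Col9a2 (0.17 to 3.48 FPKM), Col9a3 (0.271 to 9.23 FPKM) and Col16a1 (1.82 to 8.997 FPKM) also met these limits. The files also hold 22252 transcripts that StringTie assembled from the reads, with no gene name and no position, and a gene's sum leaves them out. For each of the 9 genes the assembled transcript whose values ran most opposite to the gene's leading transcript was looked up after the values were seen. For Col1a2 it was listed at 0 in PZH mouse 14 and Model mouse 52, where Col1a2-201 had 46.9 and 63.4 FPKM, and at 4.84 to 82.9 FPKM in the other 18 mice, where Col1a2-201 had at most 5.06 FPKM.

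For Col6a3, the 10 mice with most of Col6a3-202 had 3.96 to 14.8 FPKM of it and 0 to 7.94 FPKM of the assembled transcript, and the other 10 mice had at most 1.83 FPKM of it and 6.13 to 11.6 FPKM of the assembled one. In Col18a1, the assembled transcript had 29.8 to 54.2 FPKM in Control mice and 25.6, 0, 5.12, 0 and 0 FPKM in Model mice 23, 30, 33, 44 and 52. For Col5a2 it had 17.5 to 22.5 FPKM in Control and 5.52 to 9.66 FPKM in Model mice. These pairs were picked as the most opposite of 1158 to 13636 assembled transcripts compared for each gene, so the opposition is no result, and the part of such assignment in the differences of the 9 genes was not tested. Col1a1, Col3a1, Col4a1, Col4a2, Col6a1 and Col6a2 are not among the 9. Col9a2 and Col9a3 are not either, although both met the same limits in Model + PZH mice.

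**Figure D5:**
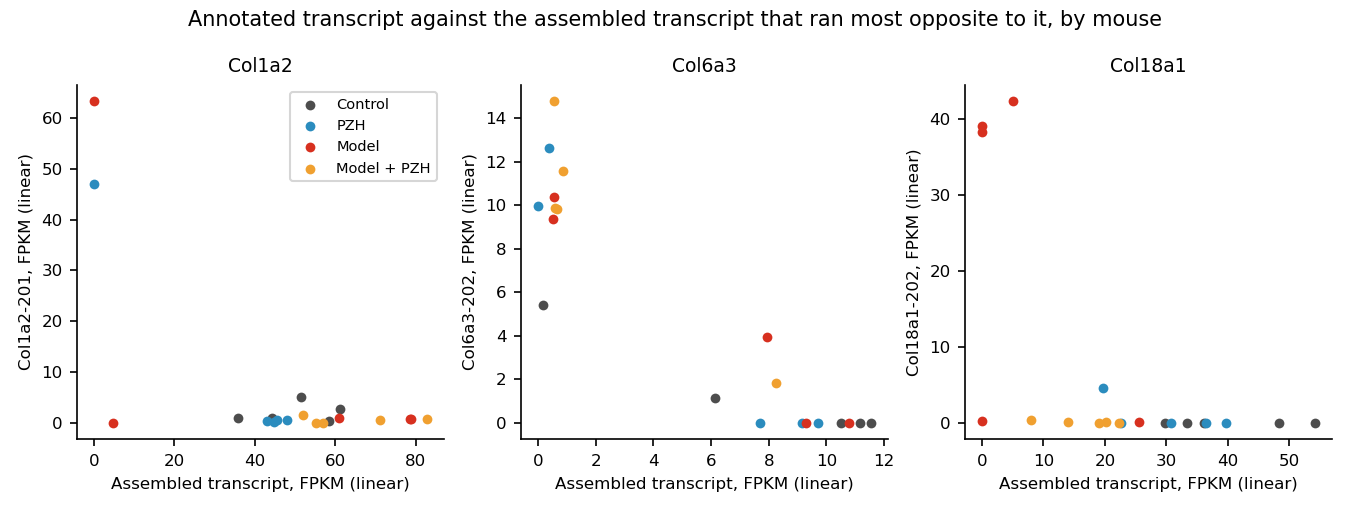
FPKM of the leading annotated transcript (vertical axis) against the assembled transcript that ran most opposite to it (horizontal axis), both linear, with 1 point per mouse in the colour of its group. Col1a2-201 is high in 1 PZH and 1 Model mouse with the assembled transcript at 0, Col6a3-202 is split in every group, and Col18a1-202 is high in 3 Model mice.

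In single transcripts, 8 collagen transcripts were called between Model and Control mice, where 6.94% of all 40464 transcripts tested were called. The number of collagen transcripts tested is not given here, so the 8 are not compared with that share. Col1a1-201, Col4a1-201, Col4a2-201, Col9a2-201, Col9a3-201 and Col16a1-207 were higher, and Col4a6-201 and Col8a2-201 lower. Col16a1-207 is annotated as a processed transcript without a coding frame, at most 0.367 FPKM in Control and 1.39 to 5.50 FPKM in Model mice. In Model mouse 52 Col4a1 was divided between Col4a1-201 (33.8 FPKM) and Col4a1-208 (33.2 FPKM), a transcript annotated for nonsense-mediated decay that was at most 0.00249 FPKM in the other 19 mice.

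Genes that make, cut, link or bind collagen were described from lists chosen with earlier results known, and their counts stand beside 16.4% of all genes called higher and 7.23% called lower in Model against Control mice. Of 16 tested genes for hydroxylation, glycosylation and folding, 3 were higher and 2 lower in Model than in Control mice, with a median log2 difference of 0.10. Plod3, a lysyl hydroxylase, had a log2 fold change of −1.27 (adjusted p = 0.0445), Colgalt1, which adds galactose to hydroxylysine, of 0.92 (adjusted p = 0.00773) and P4ha2, a prolyl hydroxylase subunit, of 0.53 (adjusted p = 0.0154). Of 8 tested genes for cleavage and cross-linking, 2 were higher, namely Lox, which starts lysine cross-links, at 2.15 ± 0.632 FPKM in Control and 7.70 ± 2.06 FPKM in Model mice (SD, n = 5; log2 fold change 1.45, adjusted p = 0.000599), and Bmp1, the procollagen C-proteinase (log2 fold change 0.92, adjusted p = 0.00686).

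Of 7 proteoglycans that sit on fibrils, 1 was higher and 3 lower in Model mice, where 16.4% of all genes were called higher and 7.23% lower. Ogn fell by 1.44, Lum by 1.14 and Aspn by 0.94 on the log2 scale (adjusted p = 0.00416, 0.00872 and 0.00561). Of 15 tested basement membrane partners 8 were higher and none lower, with a median of 0.57, among them the laminin chain Lama1 (log2 fold change 1.58, adjusted p = 6.94e-06) and the heparan sulfate proteoglycan Agrn (0.73, adjusted p = 0.011). Of 8 tested collagen receptors 2 were higher, the integrin subunit Itga2 (1.17, adjusted p = 0.00231) and the endocytic receptor Mrc2 (0.54, adjusted p = 0.0222). Of 9 tested TGF-beta ligands, receptors and binding proteins 5 were higher, among them Ltbp2 (1.63, adjusted p = 0.00184), Tgfb1 (0.83, adjusted p = 0.00118) and Tgfbr1 (0.69, adjusted p = 0.000562).

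In Model + PZH against Model mice none of these genes had an adjusted p under 0.05 by limma, while 13 of 63 tested had an unadjusted p under it, against 11.7% of all genes. Of the genes named above, those 13 held Lox, Lama1, Agrn, P4ha2, Lum and Plod3. Lox had a log2 difference of −0.96 (adjusted p = 0.356), Lama1 of −0.73 (adjusted p = 0.356), Agrn of −0.61 (adjusted p = 0.378), P4ha2 of −0.48 (adjusted p = 0.371), Lum of 0.69 (adjusted p = 0.371) and Plod3 of 1.14 (adjusted p = 0.399). In PZH against Control mice none of 62 tested was called either, and 7 had an unadjusted p under 0.05, against 8.84% of all genes. In Model + PZH against Control mice Colgalt1 (1.08, adjusted p = 0.0159), the proteoglycan Bgn (0.67, adjusted p = 0.0259) and Ogn (−0.89, adjusted p = 0.045) were called. Bgn lies outside the rule for naming genes and is given because it is 1 of only 3 called.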

How the data were processed

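RNA from the colon of 20 mice was depleted of ribosomal RNA and sequenced, and whether the libraries kept strand is not given in the sources used here. The authors checked reads with FastQC, filtered them with NGSQC, aligned them with HISAT2 to mm10 and estimated transcripts with StringTie, and they deposited transcript FPKM for each mouse, which corrects for depth and length. Each file holds 118434 transcripts, of which 96032 carry an Ensembl identifier found in GENCODE M21 (GRCm38). Their FPKM were summed over 32991 genes. Assembled transcripts without a gene name (22252) were left out of the sums. Antisense or overlapping transcripts cannot be told apart from a gene by strand.

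Groups were compared with limma 3.58.1 (R 4.3.3) with an intensity trend on log2(FPKM + 1), over genes that reached 0.5 FPKM in 5 or more of the mice compared. P-values were adjusted by Benjamini-Hochberg over all genes tested, and an adjusted p under 0.05 was called. Fold changes are on the log2(FPKM + 1) scale, which understates changes of low genes. Two-sided tests were used throughout. The fit was tested on simulated data. Tables were made with Python 3.11.15, numpy 2.4.6 and pandas 2.3.3. Depth was read from the step of FPKM times length. Of low values, 40.5 to 44.9% lay within 0.01 of a whole step, so fragments are estimates. They were used as an alternative in limma voom with sample quality weights, where each mouse gets its own weight. Limma voom stands for that fit throughout. The other alternatives were median-of-ratios scaling, no filter, at least 1 FPKM, a pseudocount of 0.1, all 20 mice in 1 fit and leaving out each mouse. Class totals were also computed with type IV alone as basement membrane and as mean log2 values. A further version, chosen after seeing the data, left out the 9 genes that jump within the Control, PZH or Model group. Each mouse is 1 sample.

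The collagen genes, their classes and the other gene lists were chosen with earlier results of these data known. Full statistics were given to collagen genes called in any comparison and to Col1a1, Col1a2, Col3a1, Col4a1, Col4a2, Col6a1, Col6a2, Col6a3 and Col18a1. From each other list the up to 3 called genes with the largest log2 fold change between Model and Control were named. A gene that this rule would name is not reported here.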

Additional observations from a re-analysis of the deposited data

Results flagged for a closer look

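In groups of 5 mice, a value was singled out where its gap to the nearest other mouse was over 0.71 of the group's range, which chance gives in about 1 in 20 groups. Of 64 groups of values tested (16 collagen genes), 9 had such a mouse, where 3.2 would be given by chance for independent, normal values. These genes share the same mice and were chosen with earlier results known, so the 9 are not read as an excess. Model + PZH mouse 35 was high in 5 of them. It had 89.7 FPKM of Col4a1 (37.8 to 43.5 in the other 4 mice), 59.7 FPKM of Col4a2 (25.4 to 29.4), 29.6 FPKM of Col5a2 (13.3 to 14.9), 13.5 FPKM of Col18a1 (2.21 to 5.00) and 3.48 FPKM of Col9a2 (0.17 to 0.638). Col1a2 stood at 68.9 FPKM in PZH mouse 14 (4.58 to 7.89 in the others) and at 65.3 FPKM in Model mouse 52 (3.25 to 5.21). Col6a1 stood at 49.8 FPKM in Model mouse 30 (33.1 to 37.9) and Col16a1 at 1.82 FPKM in Model + PZH mouse 36 (7.23 to 8.997).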

How the results depend on the processing

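Between Model and Control mice 11 collagen genes were called, 7 with limma voom on estimated fragments and 9 to 11 when 1 mouse was left out. Col1a1, Col4a1, Col4a2, Col9a2 and Col9a3 were called under every alternative run. Between Model + PZH and Model mice leaving out 1 mouse gave 0 to 6 called genes, and for the interaction 0 to 2. Between Model + PZH and Control mice there was 1, against 0 without a filter, 2 with all 20 mice in 1 fit and 0 to 1 when 1 mouse was left out. The log2 difference of Col1a2 between Model and Control turned to −0.29 without Model mouse 52 and was at most 0.70 when another mouse was left out. As a mean of log2 values over members, the basement membrane difference was 0.58 for Model against Control and −0.25 for Model + PZH against Model, where the log2 ratios of summed FPKM were 1.39 and −0.76. With type IV alone as basement membrane, the ratio for the other types between Model + PZH and Model was −0.22 instead of −0.02, which follows from moving Col15a1 and Col18a1 to them. The cause of the remaining changes was not tested. No paired analysis was possible because the replicate numbers are mouse numbers that no 2 groups share. With 5 mice per group and estimated fragments of 2 to 9.5 for Col9a3 in Control mice, low genes have little precision.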
